A study of Mus musculus with 4 samples.

Results

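The BMP, Nodal and TGF-beta pathways are represented here by 44 genes, which were located in the mouse genome build mm9 and searched for occupancy by RYBP. The genes were given as a list of ligands, receptors, Smads, Id targets and antagonists, chosen by their roles but with earlier results of these data known. They fall into 5 classes. There are 14 ligand genes (Bmp2, Bmp4, Bmp5, Bmp6, Bmp7, Gdf6, Gdf7, Gdf11, Nodal, Inhba, Inhbb, Tgfb1, Tgfb2 and Tgfb3) and 11 receptor genes (Acvr1, Acvr1b, Acvr2a, Acvr2b, Acvrl1, Bmpr1a, Bmpr1b, Bmpr2, Tgfbr1, Tgfbr2 and Tgfbr3). The other classes are 8 Smads (Smad1 to Smad7 and Smad9), 4 Id genes (Id1 to Id4) and 7 antagonists (Nog, Chrd, Grem1, Fst, Lefty1, Lefty2 and Bambi). All 44 symbols were found among the 22208 protein-coding symbols of the annotation on the autosomes and the X chromosome.

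RYBP ChIP-seq was carried out on 2 samples of wild-type FLK1+ PDGFRa- mesoderm, each with an input sample, for 4 samples in all. The cells came from embryoid bodies (EBs), which are aggregates of differentiating embryonic stem cells, of strain C57Bl/6 X Sv129, at day 3.75 according to the labels. A somewhat later day stands in the study's methods. These name FLK1+ cells for this ChIP, describe their isolation on magnetic columns and give no selection on PDGFRa. The ChIP samples came from independent differentiations, and there is a single condition with no mutant or treated group. The antibody was directed against DEDAF, another name of RYBP, although the design text speaks of SCL. Inputs were not analysed here. Peak lists hold no expression values, so the identity of the isolated cells could not be checked against marker genes. Occupancy says nothing here of whether a gene was transcribed. The replicate 1 list contained 14794 peaks and the replicate 2 list 18154, and the authors' merged list, which joins both, contained 22409 regions. The lists carry no read depth.

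RYBP is a subunit of variant Polycomb repressive complex 1, which ubiquitinates histone H2A and is found mainly at CpG-rich start sites. Ligands of the TGF-beta superfamily bring together type I and type II receptor kinases, which phosphorylate receptor-regulated Smads. These join Smad4 and enter the nucleus. BMPs act through Smad1, Smad5 and Smad9, whereas Nodal, activins and TGF-betas act through Smad2 and Smad3. BMP and Nodal signals are needed for mesoderm to form, and BMP4 is used to drive the formation of FLK1+ cells that can give rise to blood.

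The start regions of these genes differ widely in CpG content, as the following sequences show. They are 200 bases each from the mm9 strand of the gene, 5′ to 3′, with every CpG in capitals, from the member with the strongest occupancy in each class and from the member that had no region. All but the Nog sequence end at the base before the 5′ end of the gene.
Bmp7 (ligand, chr2:172765823-172766022, minus strand, 18 CpG): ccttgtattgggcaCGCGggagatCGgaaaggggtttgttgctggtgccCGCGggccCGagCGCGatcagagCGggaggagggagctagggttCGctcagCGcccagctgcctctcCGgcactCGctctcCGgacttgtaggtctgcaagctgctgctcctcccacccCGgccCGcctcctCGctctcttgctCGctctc
Acvr2b (receptor, chr9:119311362-119311561, plus strand, 30 CpG): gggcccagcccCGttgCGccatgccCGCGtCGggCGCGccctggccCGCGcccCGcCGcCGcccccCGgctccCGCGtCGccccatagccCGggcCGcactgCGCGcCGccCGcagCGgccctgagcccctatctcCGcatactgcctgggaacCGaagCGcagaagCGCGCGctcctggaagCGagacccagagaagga
Smad6 (Smad, chr9:63869867-63870066, minus strand, 20 CpG): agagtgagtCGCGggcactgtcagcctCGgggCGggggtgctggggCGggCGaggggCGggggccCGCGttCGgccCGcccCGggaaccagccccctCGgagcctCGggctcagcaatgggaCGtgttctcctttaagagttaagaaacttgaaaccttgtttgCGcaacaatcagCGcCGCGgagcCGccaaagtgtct
Id1 (Id gene, chr2:152561787-152561986, plus strand, 5 CpG): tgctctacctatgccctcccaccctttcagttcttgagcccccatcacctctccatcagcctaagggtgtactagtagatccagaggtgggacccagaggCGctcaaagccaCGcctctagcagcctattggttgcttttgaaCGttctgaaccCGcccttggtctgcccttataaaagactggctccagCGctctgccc
Nog (antagonist, chr11:89164219-89164418, minus strand, positions −545 to −346, 11 CpG): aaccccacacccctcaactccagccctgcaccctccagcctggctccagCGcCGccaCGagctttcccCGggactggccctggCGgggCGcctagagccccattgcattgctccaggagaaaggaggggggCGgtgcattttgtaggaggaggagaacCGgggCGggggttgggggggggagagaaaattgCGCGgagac
Bmp5 (no region, chr9:75622971-75623170, plus strand, 3 CpG): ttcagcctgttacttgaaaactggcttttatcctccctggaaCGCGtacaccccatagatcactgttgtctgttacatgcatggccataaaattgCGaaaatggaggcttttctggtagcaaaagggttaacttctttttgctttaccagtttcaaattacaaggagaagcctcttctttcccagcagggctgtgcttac

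RYBP occupied nearly every pathway locus. A locus was taken as the gene body with 5 kb upstream, and it was called occupied when a merged region overlapped it by at least 1 bp. A merged region was present at 43 of the 44 loci, or 97.7% (exact Clopper-Pearson 95% interval 88.0% to 99.9%), while 57.1% of all 22208 genes were occupied under the same rule. Such intervals cover counting error over genes only, and genes are not replicates of a condition. By class, regions were present at 13 of 14 ligands (92.9%, exact interval 66.1% to 99.8%), 11 of 11 receptors (lower bound 71.5%), 8 of 8 Smads (lower bound 63.1%), 4 of 4 Id genes (lower bound 39.8%) and 7 of 7 antagonists (lower bound 59.0%). These intervals are wide, with 4 to 14 genes per class, and the shares of the classes were not tested against each other.

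Occupancy was at start sites and was found in both replicates. A merged region lay within 2.5 kb of an annotated start of its own gene at 43 of 44 members, against 54.0% of all genes. Both replicates had a peak at 42 of 44 loci (95.5%), against 40.5% of all genes and 70.9% of genes with any merged region. Replicate 1 alone called a peak at 43.9% of all genes and replicate 2 alone at 53.7%. The members that lacked a peak in both were Bmp5, with none, and Inhba, with a peak in replicate 2 only.

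Most of the pathway genes have CpG-rich starts, and occupancy in these data is more frequent at such genes as a whole. Within 500 bp of the 5′ end, 41 of 44 members had at least 3 CpG per 100 bp, against 57.1% of all genes. Among all 12670 genes with starts this rich in CpG, 83.4% had a merged region at the locus and 81.8% had one at a start site. Peaks of both replicates were present at 61.2% of them. The members' shares, 97.7% with a merged region and 95.5% with peaks of both replicates, lay above those of CpG-rich genes. The part of CpG content in the members' occupancy was not tested. The 3 members below the limit were Bmp5 (0.900 CpG per 100 bp), Lefty1 (2.20) and Lefty2 (2.10). Lefty1 and Lefty2, which encode Nodal antagonists, were occupied nonetheless.

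The exceptions among the ligands were Bmp5 and Inhba. Bmp5 encodes a BMP ligand and had no peak in either list. Its start had a GC content of 37.0%, and the nearest merged region was 148978 bp away. Inhba, the gene for the beta A subunit of activin, had 1 region of 623 bp at positions +61 to +683 (chr13:16103745-16104367) called in replicate 2 only, at a fold enrichment of 3.14 (−log10 q 1.61). Fold enrichment is the signal of a peak divided by its local background, on a linear scale, as the authors' peak caller gave it. The q value is the p-value after the caller's adjustment for multiple testing.

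**Figure D1:**
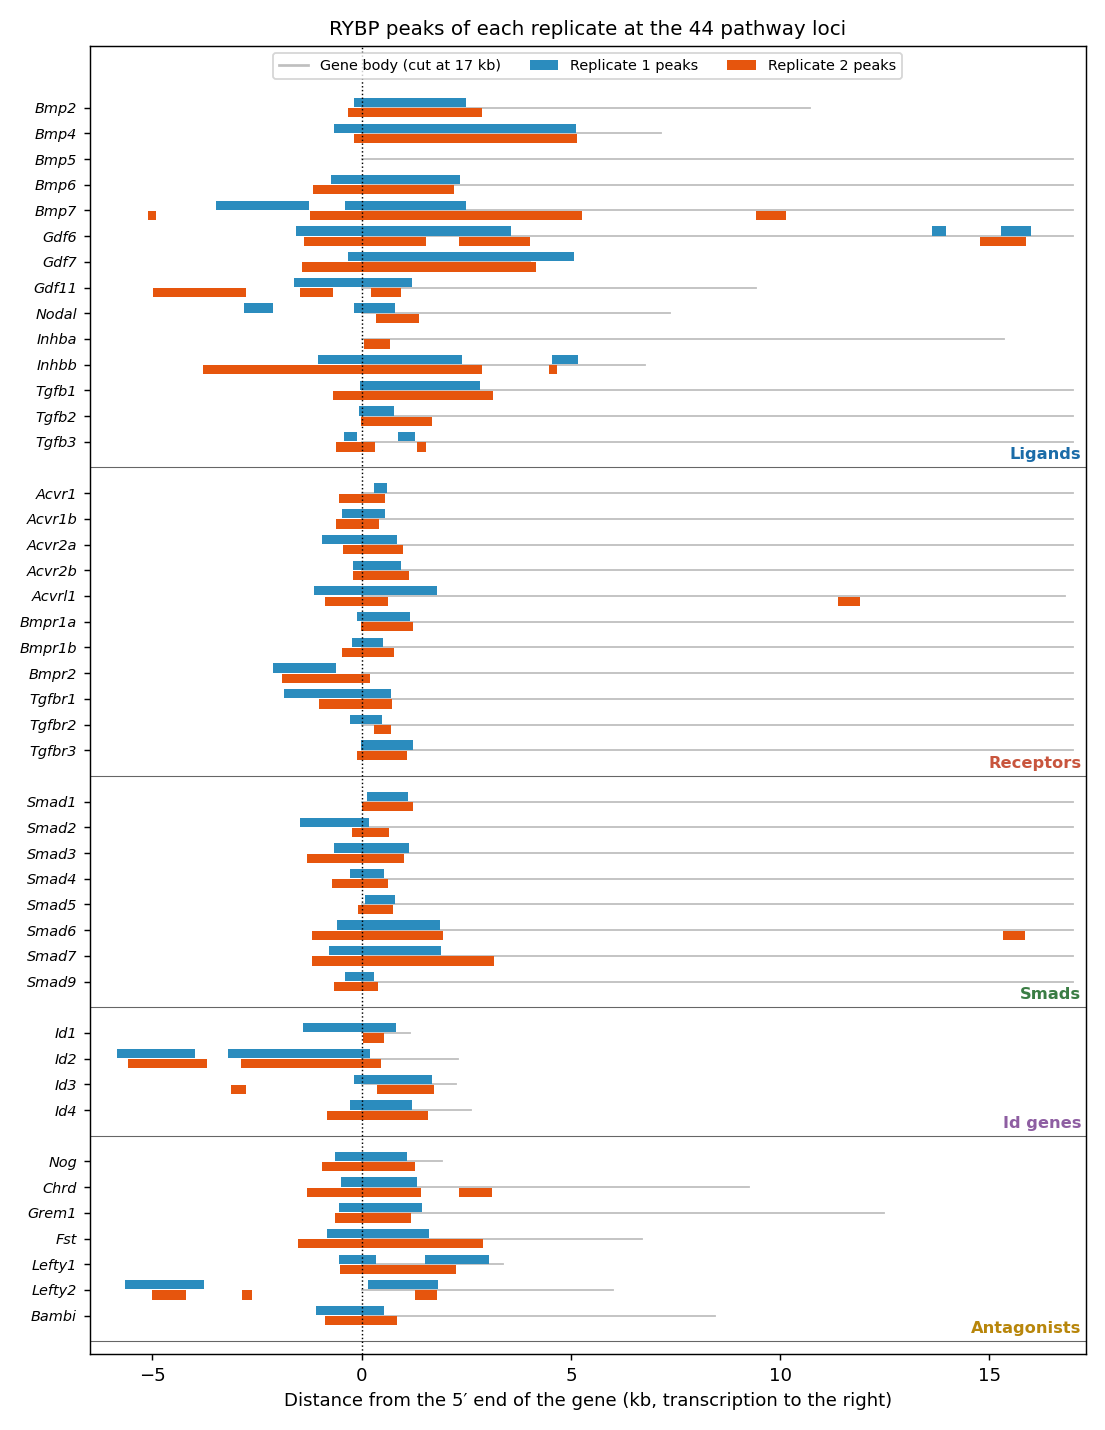
RYBP peaks at the 44 loci by replicate, drawn to scale against distance from the 5′ end of each gene in kb (blue, replicate 1; orange, replicate 2; grey line, gene body). Peaks of both replicates lie around the start of 42 genes, and the start-site peaks of Bmp4, Bmp7 and Gdf7 reach more than 4 kb into the gene in at least 1 replicate. Replicate 2 peaks within introns of Smad1 (1 peak) and Smad3 (2 peaks) lie beyond the plotted range.

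The 44 loci held 63 merged regions, of which 46 (73.0%) contained a peak of each replicate, 4 a peak of replicate 1 only and 13 a peak of replicate 2 only. Over all merged regions 44.2% contained peaks of both. A region covered an annotated start of its own gene in 43 cases, and 42 of these were found in both replicates, with a median width of 2210 bp and 6.59 CpG per 100 bp. The remaining 20 regions did not cover an annotated start, though some lay close to one, as at Inhba and Tgfb3. Of these, 4 were found in both replicates, 4 in replicate 1 only and 12 in replicate 2 only. They had a median width of 596 bp and 2.16 CpG per 100 bp. Regions that did not cover a start were thus mostly called in a single library. None of the 7 intronic regions, which lay at Bmp7, Gdf6, Acvrl1, Smad1, Smad3 and Smad6, was found in both.

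The 4 of these regions found in both replicates lay at Gdf6, Inhbb, Id2 and Lefty2. At Gdf6, which encodes a BMP-related ligand, a region of 1234 bp over an exon (positions +14775 to +16008) was enriched 2.63-fold in replicate 1 and 3.69-fold in replicate 2. An exonic region of 697 bp at Inhbb had values of 2.79 and 3.48. The upstream regions of Id2 (positions −5847 to −3692) and Lefty2 (positions −5652 to −3764) had values of 3.38 and 3.99, and of 2.86 and 3.27. At Id2, whose product is a helix-loop-helix inhibitor, the upstream region was the stronger of the 2 regions in both replicates, since the region over the start had 3.05 and 3.68.

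More than 1 merged region was present at 14 members (6 ligands, 1 receptor, 3 Smads, 2 Id genes and 2 antagonists), against 17.9% of all genes. The latter share includes the genes without any region. Among genes with any merged region, 3971 of 12678 had more than 1, a share much like that of the occupied members (14 of 43). Bmp7 had the most, with 4, and Gdf6, Tgfb3, Smad3 and Lefty2 had 3 each. Neighbouring regions were sometimes a matter of which library called which piece. At Bmp7 the replicate 1 peak at positions −3489 to −1250 ended just short of the replicate 2 peak at positions −1238 to +5265. At Tgfb3, which encodes a TGF-beta ligand, a replicate 1 peak at positions +881 to +1284 and a replicate 2 peak at positions +1325 to +1542 were called side by side (3.43 and 3.23). The start region of Tgfb3 had values of 3.09 and 3.80. Of the 3 regions of Smad3, the Smad of Nodal, activin and TGF-beta signals, that over the start had 3.36 and 4.76, and both others were intronic and seen in replicate 2 only (3.64 and 3.26).

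Among the ligands, Bmp7, a ligand with wide roles in organ formation, ranked first by the smaller of its replicate values. Each locus was given the highest value over its peaks, and members were ranked by the smaller of the 2 replicate values. Bmp7 had 4.80 in replicate 1 and 5.30 in replicate 2 (−log10 q of 8.03 and 8.66), in a region from 1238 bp upstream to 5265 bp downstream of the 5′ end (chr2:172760557-172767060). Its first 200 bases upstream are shown above, with 18 CpG. Bmp2, which acts in heart and bone formation, had 4.40 and 4.81 (chr2:133377570-133380760), and Bmp6 had 4.37 and 6.11 (chr13:38435838-38439353). Inhbb, the gene for the beta B subunit of activin, had the highest value of the list in replicate 2, 7.11, but 4.10 in replicate 1, so that its rank depended on the library. Bmp4, the ligand that drives mesoderm and blood formation in culture, had 3.93 and 4.44. Nodal, which patterns the primitive streak, had 3.50 and 3.21, and only Inhba was lower among the ligands in replicate 2. Its peaks in the libraries overlapped only in part, from position −177 to +798 in replicate 1 and from +333 to +1373 in replicate 2, and a further region upstream (positions −2818 to −2112) had a peak in replicate 1 only.

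At the receptors no region exceeded 2924 bp, and a region covered an annotated start at each of the 11 genes. The Bmpr2 and Tgfbr1 regions lay mostly upstream of the 5′ end, from position −2107 to +189 and from −1852 to +737. Acvr2b, an activin type II receptor, ranked first with 4.56 and 4.84 (chr9:119311351-119312692). The 200 bases before its 5′ end hold 30 CpG. Bmpr2, the BMP type II receptor, had 4.03 and 4.13, and Tgfbr1, the TGF-beta type I receptor, had 3.75 and 3.62. All 3 pairs differ by less than 0.53, the median absolute difference between replicates over the members. Over the 11 receptors the highest value ran from 2.85 to 4.56 in replicate 1 and from 3.57 to 4.97 in replicate 2. The lowest replicate 1 value was at Tgfbr2, the TGF-beta type II receptor, which had 4.43 in replicate 2. The Acvr1 region also covers a start of Upp2, so that it cannot be assigned to one of these genes.

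Smad6 was the most strongly occupied Smad. It encodes an inhibitory Smad that blocks BMP signals and is itself a target of them. The values were 5.88 and 5.22 (−log10 q of 10.08 and 6.64) over 3138 bp (chr9:63867926-63871063), higher than at 98.9% of all genes with a peak in replicate 1 and 88.9% in replicate 2. Smad7, the other inhibitory Smad, had 3.90 and 4.44, and Smad9, which carries BMP signals, had 3.76 and 4.95. Smad5, also of the BMP branch, had 4.87 in replicate 1 but 3.47 in replicate 2. Smad1, the main BMP Smad, had the lowest replicate 1 value of all members, 2.84, and 4.31 in replicate 2. Peaks on chromosome 8, where Smad1 lies, had a median fold enrichment of 3.03 and 3.34 against 3.29 and 3.60 over all chromosomes, and the part of this in the Smad1 value was not tested. Smad4, the partner shared by all branches, had 3.0 and 3.51.

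Id genes encode helix-loop-helix proteins without a DNA-binding region and are known direct targets of BMP Smads. All 4 had peaks of both replicates, and all 4 had the higher value in replicate 2. Id1 had 3.81 and 4.24, Id2 had 3.38 and 3.99, Id3 had 3.24 and 3.95, and Id4 had 3.35 and 4.70. Id1, the strongest of them by the smaller value, has only 5 CpG in the 200 bases shown above. The extent of its peak differed between the libraries, from position −1401 to +811 in replicate 1 and from +44 to +535 in replicate 2.

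Of the antagonists, Nog had the largest values. Its product, Noggin, binds BMPs outside the cell. The fold enrichment was 4.50 and 6.72 (−log10 q of 5.94 and 10.38) over 2233 bp at the start (chr11:89162598-89164830), and the replicate 2 value was higher than at 98.6% of genes with a peak. A further region of 2605 bp lay 366 bp past the end of the gene, outside the locus as defined, with 3.28 and 3.90. Fst, encoding the activin-binding protein follistatin, had 3.90 and 4.95. Lefty1 had 3.54 and 4.57, and Lefty2 3.13 and 3.52. Lefty1 and Lefty2 are near copies of each other, and 48.8% of the 3573 bp of the Lefty1 region could be aligned with the Lefty2 locus, with a longest stretch of 777 bp at 90.3% identity and another of 393 bp at 97.7%. Since reads with up to 2 alignments were kept, the split of signal between this pair is uncertain. Bambi, a membrane protein that resembles a receptor without a kinase, had 3.51 and 3.25. Chrd and Grem1, which encode the BMP binders chordin and gremlin, had 3.52 and 3.99, and 3.51 and 3.80. A start of Thpo lies in the Chrd region as well.

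**Figure D2:**
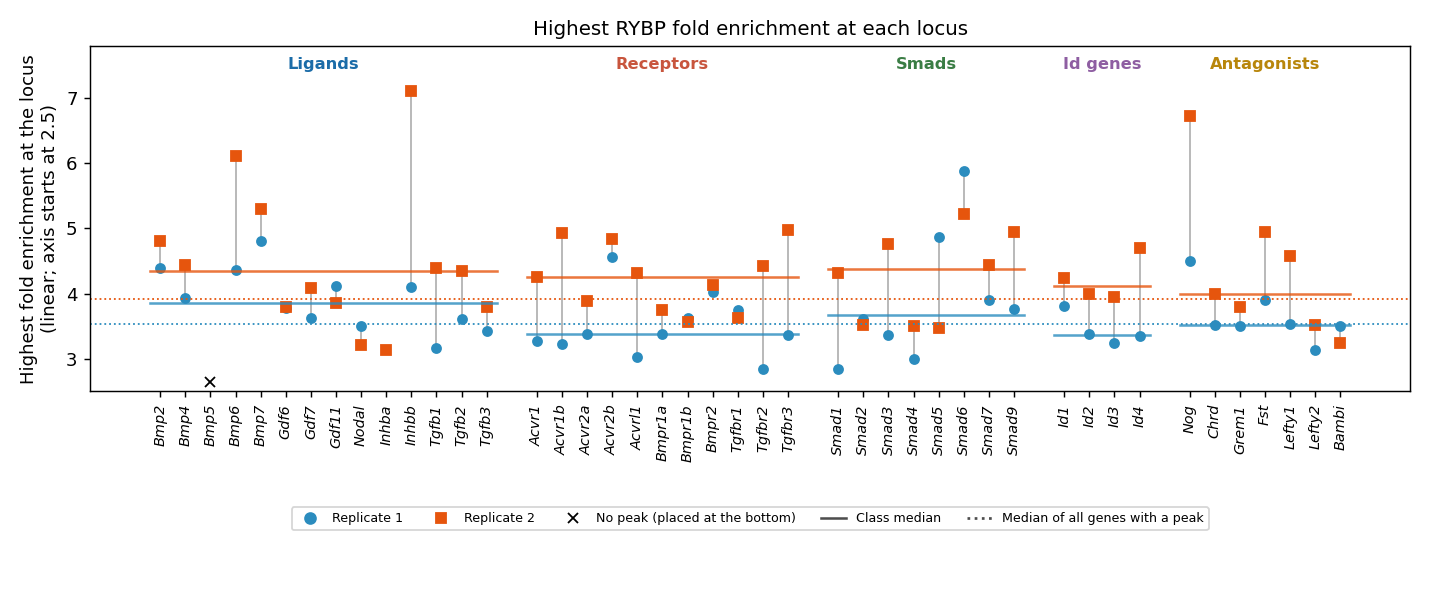
Highest RYBP fold enrichment at each of the 44 loci on a linear axis that starts at 2.5 (circles, replicate 1; squares, replicate 2), with class medians as solid lines and the medians of all genes with a peak (3.53 and 3.92) as dotted lines. Replicate 2 lies above replicate 1 at 34 of 42 loci, and class medians lie closer together than the replicates of many single genes. Bmp5 has no peak and Inhba none in replicate 1.

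The classes did not separate by fold enrichment. The median of the highest value per locus was 3.85 in replicate 1 and 4.35 in replicate 2 for ligands, 3.38 and 4.26 for receptors, 3.68 and 4.38 for Smads, 3.37 and 4.11 for Id genes and 3.52 and 3.99 for antagonists. Within either replicate these class medians spanned less than the 0.53 by which a member's replicates differed at the median. Over all members the medians were 3.57 and 4.26, beside 3.53 and 3.92 for all genes with a peak, and 22 members in replicate 1 and 28 in replicate 2 lay above the latter values. Replicate 2 gave the higher value at 34 of the 42 members with both (81.0%), much as over all genes (78.3%). The order of the members was only loosely shared between libraries, with a Spearman rho of 0.31 over 42 members and 0.49 over 8987 genes, which all share the same pair of libraries.

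Ligand loci had wider RYBP regions than receptor loci. The widest merged region at a locus had a median of 3520 bp at ligands, 1340 bp at receptors, 1730 bp at Smads, 2310 bp at Id genes and 2230 bp at antagonists, beside 1080 bp over all genes with a region. The same order of ligands and receptors was seen in each library. In replicate 1 the widest peak had a median of 2880 bp at ligands and 1230 bp at receptors, and in replicate 2 of 3190 bp and 1260 bp, whereas a member's own replicates differed by a median of 516 bp. The ranges of the classes overlapped, from 623 to 6650 bp at ligands and from 965 to 2920 bp at receptors. With 1 condition and 2 libraries, the difference between classes was not tested. Width was also more alike between replicates than fold enrichment, with a Spearman rho of 0.75 over the 42 members. Most members (38 of 44, among them 11 ligands and 10 receptors) had a region wider than the median over all genes with one.

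Width also differed between subgroups of the classes. In the merged list, the 8 BMP and GDF ligands had a median of 5580 bp over the 7 that were occupied. The 3 TGF-beta ligands had 1750 bp, and Nodal and the activin subunits 1550 bp, with Inhbb at 6650 bp. In the single libraries the widest peaks of BMP and GDF ligands were shorter, with medians of 3080 bp in replicate 1 and 3360 bp in replicate 2. These medians were 847 and 1700 bp at TGF-beta ligands, and 2210 and 1040 bp at Nodal and the activin subunits. Among the Smads, both inhibitory members were wide (Smad6 3138 bp, Smad7 4351 bp), and the 5 receptor-regulated Smads had a median of 1240 bp. Type I receptors had a median of 1310 bp and type II receptors of 1650 bp. These groups hold between 2 and 8 genes each, and no test was made between them.

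**Figure D3:**
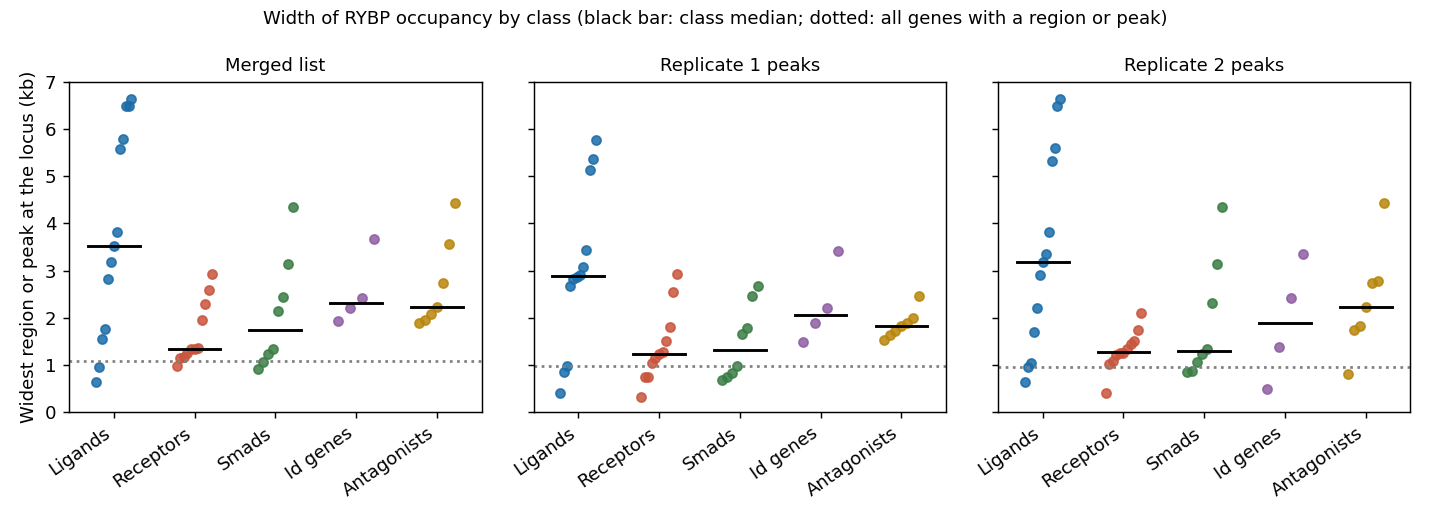
Widest RYBP region or peak per locus in kb, by class, in the merged list and in each replicate (points, genes with a region or peak; black bars, class medians; dotted lines, medians over all genes). The ligands reach above 5 kb in all 3 panels and no receptor passes 3 kb.

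Regions of at least 4 kb were present at 7 members (15.9%), against 2.88% of all genes and 4.26% of genes with a CpG-rich start. The limit of 4 kb was chosen with the values in view. There were 5 ligands among the 7, namely Inhbb (6650 bp), Bmp7 (6504 bp), Gdf7 (6494 bp), Bmp4 (5806 bp) and Gdf6 (5579 bp), and in addition Fst (4428 bp) and Smad7 (4351 bp). Just below the limit were Tgfb1 with 3814 bp and Id2 with 3673 bp. Not all of these were wide in both libraries. Bmp4 had peaks of 5776 bp in replicate 1 and 5326 bp in replicate 2, and Gdf7, which encodes another BMP-related ligand, had peaks of 5379 and 5596 bp. Replicate 2 called a single wide peak where replicate 1 called a shorter one at Bmp7 (6504 against 2905 bp), Inhbb (6650 against 3443 bp), Fst (4428 against 2454 bp) and Smad7 (4351 against 2666 bp). At Gdf6 it was replicate 1 that called the longer peak, of 5128 bp against 2909 bp. In replicate 1 alone 3 ligands passed 4 kb and no member of another class did, and in replicate 2 alone 4 ligands, Smad7 and Fst did so. Over all genes the shares were then 1.99% and 1.80%.

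The share of the gene body under RYBP regions varied widely among the shorter genes. The Gdf7 region (chr12:8303696-8310189) covered 100% of the gene body, and the Bmp4 region (chr14:47005190-47010995) covered 72.1%. RYBP regions also covered 89.8% of Lefty1, 77.1% of Id3, 70.0% of Id1, 66.4% of Nog and 60.6% of Id4. Other short genes were covered in lesser part, among them Fst (43.5%), Lefty2 (28%), Id2 (20.6%), Nodal (18.7%) and Bambi (10% of the gene body). At the receptors, whose genes have a median length of 91000 bp, the median covered share was 1.12%. Ligand genes have a median length of 16700 bp and were covered to a median of 17.4%. Among the members, wider regions went with shorter genes (Spearman rho −0.36 over 43 genes), and over all 12678 genes with a region there was no such relation (rho −0.00).

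**Figure D4:**
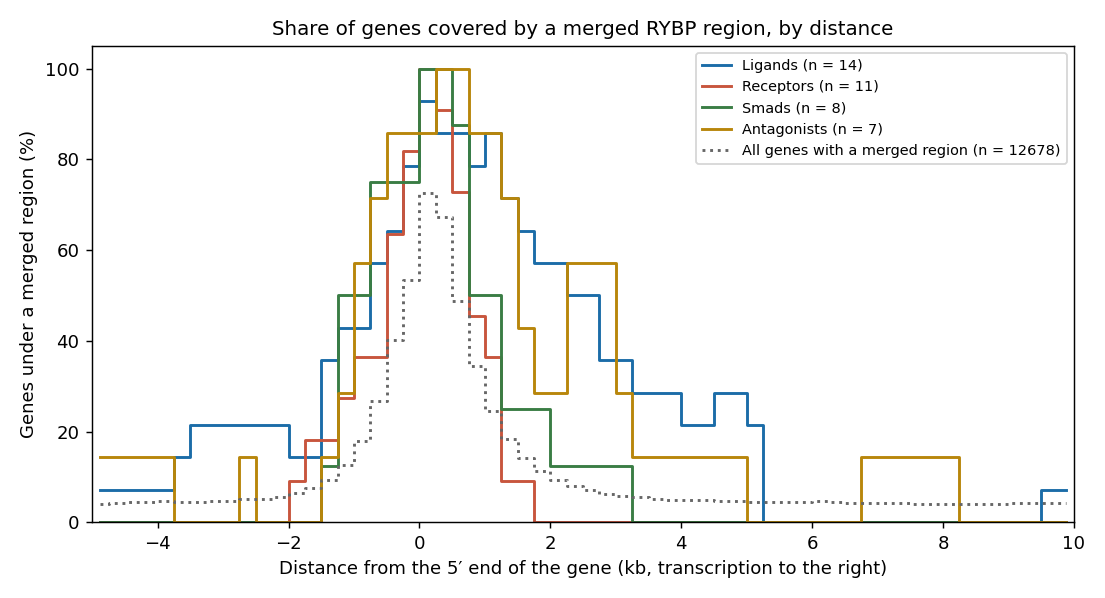
Share of genes covered by a merged RYBP region in steps of 250 bp from 5 kb upstream to 10 kb downstream of the 5′ end, by class and over all genes with a region (dotted). The 4 classes plotted peak just past the 5′ end, and at 2125 bp downstream 57.1% of ligands but 0 of 11 receptors are covered.

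Coverage was also followed by distance from the 5′ end, whether or not a position lay within the gene. In the 250 bp step centred 125 bp past the 5′ end, 92.9% of ligands, 100% of receptors, Smads and Id genes and 85.7% of antagonists were covered. The share was 41.4% over all genes and 72.6% over genes with any merged region. At 2125 bp past the 5′ end the shares were 57.1% of ligands, 0% of receptors, 12.5% of Smads, 0% of Id genes and 28.6% of antagonists. There, 5.35% of all genes and 9.31% of genes with any merged region were covered. The order of ligands and antagonists changed with distance. At 2375 bp, 7 of 14 ligands and 4 of 7 antagonists were covered, and at 2875 bp 5 of 14 and 4 of 7. At 3125 bp, 5 of 14 ligands and 2 of 7 antagonists were covered. No receptor was covered at these distances. At 4125 bp, 3 of 14 ligands, 1 of 4 Id genes and 1 of 7 antagonists were covered. This distance lies past the end of the short genes, since the Id genes are at most 2610 bp long and Gdf7 4021 bp. The antagonist was Nog, covered by the region past the end of the gene. The coverage of ligands ran into the gene more than upstream of it, since 21.4% of ligands were covered 2125 bp upstream.

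CpG density did not run with the width of occupancy among these genes. Density within 500 bp of the 5′ end had a median of 7.35 per 100 bp at ligands, 8.30 at receptors, 10 at Smads, 5.10 at Id genes and 9.10 at antagonists, beside 4.10 over all genes. Its Spearman rho with the widest region was −0.02 over the 43 occupied members. The number of CpG within 2.5 kb of the 5′ end had a rho of 0.33 with the widest region over the members and 0.46 over all genes with a region. That number had a median of 173.5 at ligands and 204.0 at receptors. The part of CpG content in the width of regions was not tested. Bmp4, with 3.50 CpG per 100 bp at its start, had a wider region than any receptor, and Acvr2a, with 14.3, had one of 1955 bp.

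**Figure D5:**
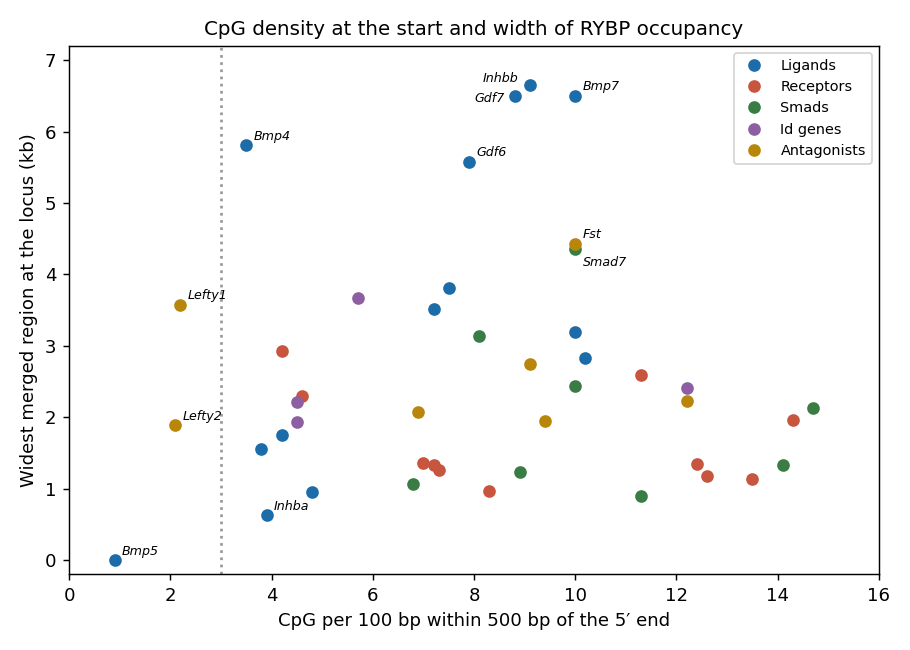
Widest merged region per locus in kb against CpG per 100 bp within 500 bp of the 5′ end for the 44 members, coloured by class (Bmp5 at 0; dotted line, 3 CpG per 100 bp). The wide ligand regions, labelled, lie between 3.50 and 10 CpG per 100 bp, and every receptor lies below 3 kb.

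The windows of 1000 bp around the 5′ ends were searched on both strands for letters that Smads and E-box factors are known to bind. GGCGCC, the palindrome of BMP-responsive elements bound by Smad1 and Smad5, was present at 30 of 44 members (68.2%), against 33% of all genes and 53.4% of CpG-rich genes. By class it was present at 8 of 8 Smads, 10 of 11 receptors, 3 of 4 Id genes, 4 of 7 antagonists and 5 of 14 ligands. The share at the ligands was thus near that of all genes, and no difference between classes was tested. CAGACA, a Smad box, was present at 34.1% of members, 51.7% of all genes and 43.9% of CpG-rich genes. For GTCTAG, part of a palindromic Smad box with the same GTCT letters, the shares were 15.9%, 24.6% and 23.9%. The E-boxes CACGTG and CAGCTG, of the kind that helix-loop-helix factors such as SCL and MYC bind, were present at 13 and 22 of the 44 members. They were present at 17% and 41.8% of all genes, and at 21.6% and 40.4% of CpG-rich genes. A match of letters is a description of the sequence and does not show that a factor was bound.

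In Id genes the BMP-responsive element is known as GGCGCC followed by GTCT. The stretches below are 50 bases each in mm9, with these letters in capitals, from the strand of the gene, and were chosen after the sequences had been seen. The Id2 and Id3 stretches hold both parts, and the Id1 stretch holds the palindrome without GTCT after it.
Id1, position −1099 (chr2:152560866-152560915, plus strand): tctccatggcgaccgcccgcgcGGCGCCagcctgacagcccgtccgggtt
Id2, position −2776 (chr12:25783706-25783755, minus strand): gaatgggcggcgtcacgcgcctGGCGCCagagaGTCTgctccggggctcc
Id3, position −2957 (chr4:135696433-135696482, plus strand): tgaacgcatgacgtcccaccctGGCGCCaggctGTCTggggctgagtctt
Id3, position +1296 (chr4:135700686-135700735, plus strand): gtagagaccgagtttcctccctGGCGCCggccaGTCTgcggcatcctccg

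The full element was taken as GGCGCC with 5 bases of any kind and then GTCT, on either strand. It was present in the 5 kb upstream of 2 of the 44 members (4.55%), Id2 and Id3, and of 53 of all 22208 genes (0.239%). Because the element is known from Id genes and was counted after these sequences had been seen, its presence at Id2 and Id3 is no independent result. The 2 shares therefore do not compare the members with other genes. The upstream copies of Id2 and Id3 both lay under a merged region. A merged region covered the element at 29 of the 53 genes. The Id2 copy lay under the peak of replicate 1 that runs from position −3200 to +209 and under that of replicate 2 from −2886 to +472. The upstream Id3 copy lay under a peak of replicate 2 only, of 363 bp and a fold enrichment of 3.08, and the copy at +1296 lay under the peaks of both replicates over the gene (3.24 and 3.95). At Id1 the palindrome at −1099 lay under the replicate 1 peak and outside the replicate 2 peak.

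The base composition of whole regions also differed by class. Merged regions at receptors had a median of 9.04 CpG per 100 bp and those at Smads of 7.21, whereas those at ligands had 5.0, Id genes 4.99 and antagonists 4.67, beside 4.08 over all merged regions. The classes thus stood in another order than by width, with the narrow receptor regions densest in CpG. Over all 63 regions the median GC content was 59.4%, beside 57.8% for all merged regions.

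Further genes of the same pathways, not on the list of 44, were counted in the same way. Of 52 such genes, among them further ligands, co-receptors, processing enzymes, Smad ubiquitin ligases and corepressors, 42 had a merged region (80.8%, exact 95% interval 67.5% to 90.4%), against 57.1% of all genes. Peaks of both replicates were present at 34 (65.4%), against 40.5%. Regions of at least 4 kb were present at 2 (3.85%), near the 2.88% of all genes. These were Rgma (4421 bp) and Ltbp4 (10983 bp), and none of the further ligands had a region this wide. The strongest of the 52 genes were Rgmb (4.95 and 7.27) and Rgma (4.54 and 4.70), which encode BMP co-receptors. Next was Pcsk6 (4.46 and 4.88), which encodes a protease that cleaves Nodal and BMP precursors. The 10 without a region were Bmp10, Bmp15, Gdf2, Gdf5, Gdf9, Mstn, Inhbc, Chrdl1, Cer1 and Sostdc1, that is, 7 ligands and 3 antagonists. A CpG-rich start was present at 2 of these 10 (Gdf9 with 6.50 and Chrdl1 with 3.90 per 100 bp) and at 30 of the 42 occupied genes.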

How the data were processed

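RYBP ChIP-seq peaks of 2 samples of FLK1+ mesoderm were used. Per the study's methods, paired-end reads were aligned to mm9 with Bowtie 1.1.2b, duplicates were removed, and peaks were called per replicate with MACS2 2.0.10 under its broad option. Each list deposited by the authors gives a fold enrichment (a linear ratio), the −log10 of p and q, and a score equal to 10 times −log10 q, rounded down. The merged list holds positions only.

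Loci were taken from the GENCODE annotation of mm9. Replicate 2 starts were moved by 1 bp, as in the merged list, and printed coordinates are 1-based. Overlaps were counted in Python 3.11.15 with numpy 2.4.6 and scipy 1.17.1, sequences were read with pysam 0.24.0, and the Lefty loci were aligned with blastn 2.17.0. The counting code was first tested on simulated intervals. Shares have exact Clopper-Pearson intervals, and correlations are given without p. With 1 group of 2 samples no test between groups could be made. Depth is not in the lists. The study's reporting summary gives more total and mapped reads for the first RYBP ChIP sample than for the second, whose list is the longer. The effect of depth on width and number of peaks was not tested.

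Values in both replicates are given for the 3 members per class with the largest smaller fold enrichment, the 5 widest, the 5 with most regions, and members with peaks of 1 replicate or none. Others named outside this rule were chosen after their values were seen. Members and lists were chosen with earlier results of these data known.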

Additional observations from a re-analysis of the deposited data

How the results depend on the processing

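Of 104 alternatives over 19 results, 96 left the value within 1.5 times or within the spread between replicates. The number of occupied members was 42 or 43 in each single replicate, in regions found in both, and at the stricter thresholds (fold enrichment of at least 3, or −log10 q of at least 2). Without replicate 2 it was 42 and without replicate 1 it was 43. Over all genes the share was 43.9% without replicate 2, 53.7% without replicate 1 and 38.9% for regions found in both. It was 54.2% at the fold enrichment limit and 47.4% at the q limit. With −log10 q of at least 2 in each replicate, peaks of both replicates were present at 37 members, against 30.6% of all genes.

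The 8 values that moved concern a class boundary and the count of wide regions, whose alternatives were chosen after seeing the data. With Lefty1 and Lefty2 counted as ligands and Bambi as a receptor, antagonists with a region went from 7 of 7 to 4 of 4, as the class then holds 4 genes. Members with a region of at least 4 kb numbered 5 ligands, 1 Smad, 0 Id genes and 1 antagonist. At a limit of 3 kb they numbered 8, 2, 1 and 2, while the share over all genes rose from 2.88% to 5.57%. With either replicate left out, the number of ligands was 3 to 4, of Smads 0 to 1 and of antagonists 0 to 1. The lower value came each time from leaving out replicate 2, and the cause was not tested. The number of receptors was 0 in each of these settings. Leaving out a replicate does not apply to counts of peaks in both replicates or to medians of a single replicate.

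No paired analysis was possible because each ChIP sample shares its number only with an input, and inputs were not analysed here.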
